A study of Mus musculus with 8 samples.

Results

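A list of 46 symbols of DNA damage response and repair genes was looked up, by name, in the RNA-seq counts of Th17 cells from WT and Trim28-/- mice, and 45 of the 46 were found among 13704 genes. Claspn was listed in neither table. Its current symbol, Clspn, stands in both, with 801 reads in the WT and 1176 reads in the KO library, and was not counted as a member because the symbols were matched as given. Th17 cells are helper T cells that make IL-17. Both libraries came from C57BL/6 mice, one wild type and one TRIM28fl/flxCD4cre, in which the Cre recombinase is driven by the Cd4 promoter, so that Trim28 is removed in T cells. Naive CD4+ T cells were cultured for 3 days in medium holding TGFβ at 0.5 ng/ml and IL-6 at 20 ng/ml, and were stimulated again through CD3 before mRNA was sequenced. There was 1 library per genotype, so no difference given here has a replicate check, and a test on reads compares the libraries and not the genotypes.

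A cell that meets a DNA break first senses it, through the Mre11-Rad50-Nbn complex or the Ku proteins, and then signals through the kinases Atm, Atr and DNA-PKcs (the product of Prkdc). Breaks are repaired by homologous recombination, which copies the sister chromatid in S phase and G2, or by non-homologous end joining, which T cells also need to assemble their antigen receptor genes. Damage or errors on a single strand are handled by pathways that include mismatch, nucleotide excision and single-strand break repair. TRIM28, a chromatin corepressor also called KAP1, is itself a known substrate of the Atm kinase at breaks in compact chromatin.

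The WT library held 6650066 reads and the KO library 6185108 reads, and 3 reads, the smallest level taken as shown, were 0.451 CPM (reads scaled to a library of 1000000) in WT and 0.485 CPM in KO. Trim28 fell from 4485 reads in WT to 180 in KO, which is -4.53 as a log2 fold change (KO over WT, each count scaled to its library total) with an exact 95% interval from -4.76 to -4.32. Cd3e (4407 and 4778 reads) and Cd4 (7904 and 6598 reads), which mark CD4+ T cells, were high in both libraries. Of the 6 markers of CD4+ T and Th17 cells, 5 were lower and 1 higher past the read test, and they summed to 19881 reads in WT and 13400 in KO. Il17a (2226 and 381 reads) and Il17f (3143 and 345 reads) were the 2 that were lower by at least 2-fold. Of the CD8 T cell markers, Cd8a had 1 and 2 reads and Cd8b1 52 and 27, and the NK cell markers Ncr1 and Klrb1c were listed in neither library. Of the 5 myeloid markers, Lyz2, Csf1r and Adgre1 were listed in neither library, and the list summed to 1 and 3 reads. In bulk libraries, fewer cells of a type and less RNA per cell cannot be told apart.

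The upstream sequences of 3 members are shown because they set an S-phase motif beside the members' directions: Bard1, higher in the KO library, and Mdc1, lower, both hold an E2F motif, and Ercc2, lower, holds none. Once the trend of all genes with transcript length was taken off, Bard1 was still higher (0.68) and Ercc2 still lower (-0.42). Mdc1 then stood at 0.05 and no longer passed the test on reads. Each sequence is printed on the gene's strand from RefSeq, build GRCm38.p6, with the E2F motif in capitals, and stops where the first annotated transcript begins. They lie at chr1:71103142-71103222 (minus strand, Bard1), chr17:35841248-35841494 (plus strand, Mdc1) and chr7:19381767-19382016 (plus strand, Ercc2).
Bard1: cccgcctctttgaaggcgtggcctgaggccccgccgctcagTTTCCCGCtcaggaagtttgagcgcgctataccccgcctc
Mdc1: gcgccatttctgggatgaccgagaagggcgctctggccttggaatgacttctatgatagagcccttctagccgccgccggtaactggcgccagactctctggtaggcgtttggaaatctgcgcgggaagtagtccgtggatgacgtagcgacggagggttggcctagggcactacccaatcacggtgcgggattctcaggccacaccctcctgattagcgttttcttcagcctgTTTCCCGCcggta
Ercc2: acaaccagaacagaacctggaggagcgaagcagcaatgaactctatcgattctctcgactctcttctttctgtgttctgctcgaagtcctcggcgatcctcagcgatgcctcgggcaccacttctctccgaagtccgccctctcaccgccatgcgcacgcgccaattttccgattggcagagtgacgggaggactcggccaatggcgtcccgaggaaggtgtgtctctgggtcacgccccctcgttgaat

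As a set, the repair genes passed the test about as often as genes in general. Reads of the 2 libraries were compared by a two-sided exact binomial test with Benjamini-Hochberg adjustment over the 10881 genes whose reads in WT and KO came to 10 or more, and 41 of the 45 members had that many. None of the 41 was lower by at least 2-fold at an adjusted p under 0.05, against 5.53% of all tested genes, and none was higher, against 2.57%. At any fold, 9 members were lower past the test and 9 were higher of the 41, beside 22.4% and 21.4% of all tested genes. The members' median log2 fold change was 0.10, beside -0.02 for all tested genes, with 25 values above 0 and 16 below. Their summed level was 3296 CPM in the WT and 3209 CPM in the KO library. With a coefficient of variation of 0.1 assumed between replicates, edgeR's exact test passed 0 of the 41 members, beside 7.80% of all tested genes lower and 4.47% higher.

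**Figure D1:**
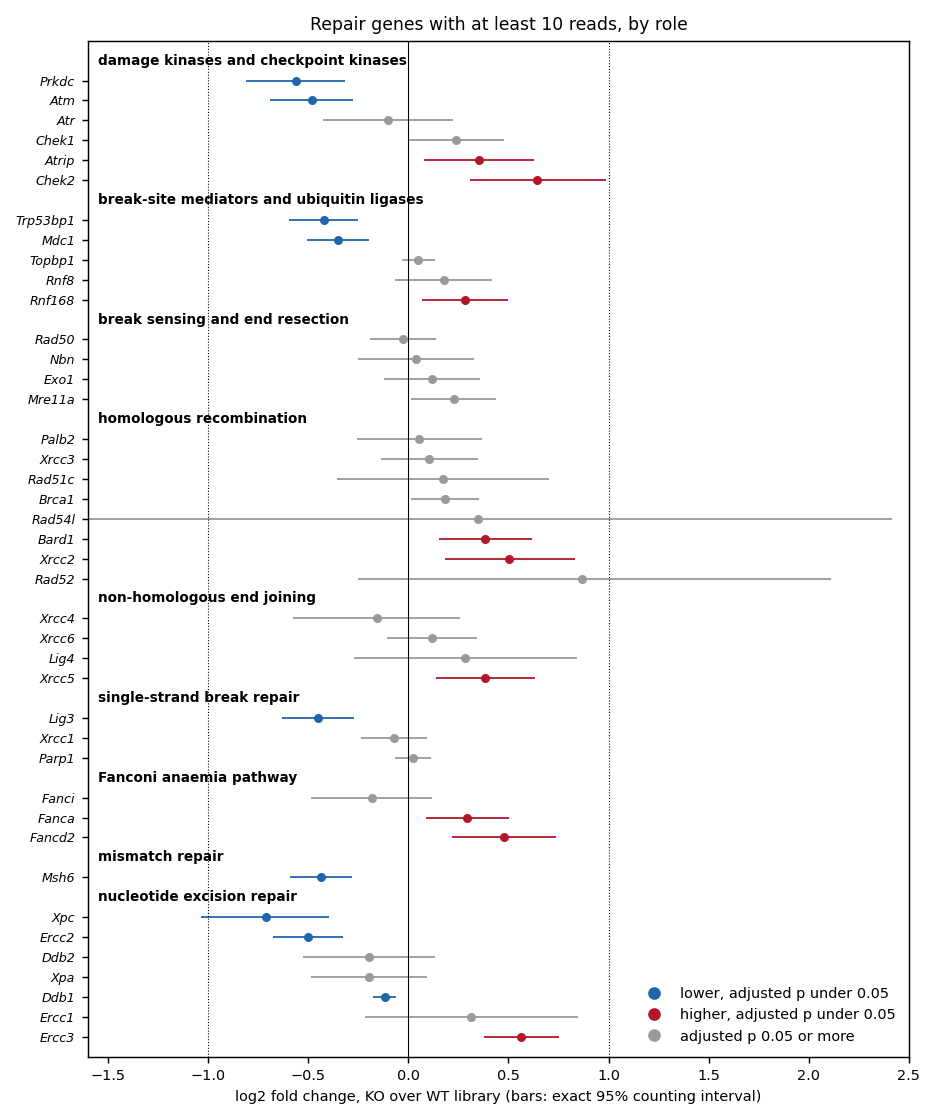
Log2 fold change (KO over WT library) of the 41 repair genes with at least 10 reads, grouped by role, with bars for the exact 95% counting interval and dotted lines at 2-fold. The 9 lower genes run from -0.71 (Xpc) to -0.12 (Ddb1), the 9 higher ones from 0.28 (Rnf168) to 0.64 (Chek2), and no gene past the test has a point beyond a dotted line.

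The kinases split. Atm, the kinase that answers double-strand breaks (chromosome 9, 53437122 to 53536828), went from 479 reads in WT to 319 in KO (log2 fold change -0.48), with an exact 95% interval from -0.69 to -0.27 and an adjusted p of 1.73e-05. Prkdc, the DNA-PK catalytic subunit (chromosome 16, 15637444 to 15842239), went from 359 to 226 reads, or -0.56 (-0.81 to -0.32). Both kinases were thus lower, at 1.40-fold and 1.48-fold, but neither passed once the trend of all genes with transcript length was taken off (0.02 for both, adjusted p 0.948 and 0.933 in the exact test). Chek2, the checkpoint kinase that Atm activates (chromosome 5, 110839800 to 110874140), went the other way, with 125 and 182 reads and 0.64 (0.31 to 0.99). Atrip, the partner through which Atr is recruited, had 208 and 247 reads and was higher at 0.35 (0.08 to 0.63), a call that the length correction also ended (0.29, adjusted p 0.0840 in the exact test). Atr itself (172 and 149 reads) and its target Chek1 (279 and 306 reads) did not pass the test, at -0.10 and 0.24.

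Among the proteins that gather at a break, Trp53bp1, which steers repair towards end joining, had 669 and 464 reads and was lower at -0.42 (-0.60 to -0.25), and Mdc1, the scaffold that reads phosphorylated H2AX, had 809 and 590 reads and was lower at -0.35 (-0.51 to -0.20). With the length correction they stood at 0.07 and 0.05 and did not pass. The ubiquitin ligase Rnf168 (344 and 389 reads) was higher at 0.28, while Rnf8, the ligase before it, had 275 and 289 reads and a value of 0.18 that did not pass. Topbp1, an activator of Atr, was among the most abundant members (2332 and 2246 reads) and stood at 0.05 with an interval from -0.03 to 0.13. None of the 4 sensing and resection genes tested passed, beside 22.4% of all tested genes lower and 21.4% higher. Rad50, Mre11a, Nbn and Exo1 ran from -0.02 to 0.23.

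Homologous recombination genes lay above 0 in all 8 tested members, as did 5290 of all 10881 tested genes. Past the test as higher were 2 of the 8 (25%), beside 21.4% of all tested genes. The 2 were Bard1, the partner of Brca1 (280 and 340 reads, 0.38, 0.15 to 0.62), and the strand-exchange cofactor Xrcc2 (141 and 186 reads, 0.50, 0.18 to 0.83). Brca1 itself had 557 and 589 reads, which gave 0.19 with an adjusted p of 0.0675 in the exact test. Palb2, Xrcc3 and Rad51c stood between 0.05 and 0.17. Rad52 had 11 and 19 reads, so that its value of 0.87 carried an interval from -0.25 to 2.11, and Rad54l had only 5 and 6 reads. Of 13 other tested genes of homologous recombination and resolution, which are not members, 8 lay above 0 and 5 below. Among these 13, 4 were higher and 3 lower past the test. In the Fanconi anaemia pathway, which clears crosslinks, Fancd2 (221 and 286 reads, 0.48) and Fanca (368 and 420 reads, 0.30) were higher, and Fanci had 204 and 167 reads and a value of -0.18.

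In end joining, 1 of 4 genes passed as higher (25%) and 0 as lower, beside 21.4% and 22.4% of all tested genes. Xrcc5, which encodes Ku80, had 249 and 302 reads and was higher at 0.38 (0.14 to 0.63), whereas Xrcc6, which encodes its partner Ku70, had 329 and 332 reads and stood at 0.12 (-0.11 to 0.34). Xrcc4 and Lig4, which seal the ends together, stood at -0.16 and 0.28, and neither passed. In single-strand break repair, the ligase Lig3 (chromosome 11, 82781109 to 82804274) had 638 and 434 reads and was lower at -0.45 (-0.63 to -0.27), or -0.13 and not past the test with the length correction. Parp1, the break sensor, had 2122 and 2004 reads and Xrcc1, the scaffold that binds Lig3, 635 and 562 reads, with log2 fold changes of 0.02 and -0.07.

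Excision repair held the lowest value of the 41. Xpc, which recognises helix-distorting lesions (chromosome 6, 91489305 to 91515888), went from 229 reads in WT to 130 in KO, 1.64-fold lower, or -0.71 in log2 terms (-1.03 to -0.40) and an adjusted p of 2.59e-05 in the exact test. The TFIIH helicase Ercc2 (chromosome 7, 19382017 to 19395694) was lower at -0.50 (677 and 445 reads), and the other TFIIH helicase, Ercc3, was higher at 0.56 (407 and 560 reads). Ddb1, an adaptor of CUL4 ubiquitin ligases, had the highest level per length of all members, 180 RPKM (CPM per kilobase of transcript) in WT and 166 RPKM in KO, and its small fall of 0.12 on the log2 scale passed the test on 5334 and 4570 reads, though not with the length correction (0.05). Its partner Ddb2 (-0.20), Xpa (-0.20) and Ercc1 (0.31) did not pass. Of 15 other tested genes of nucleotide excision repair, which are not members, 10 lay above 0 and 5 below. Among these 15, 4 were lower (26.7%) and 2 higher (13.3%) past the test, beside 22.4% and 21.4% of all tested genes. Msh6, the 1 mismatch repair gene among the members, had 838 and 576 reads and was lower at -0.44 (-0.59 to -0.28). After Ddb1, the members highest per length in WT were Parp1 (82.4 RPKM), Topbp1 (67.1 RPKM), Xrcc1 (37.8 RPKM) and Msh6 (29.6 RPKM).

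Partners that act in 1 complex or step were then set against each other, since the library totals cancel in such a ratio. Both genes were listed for 16 of 17 pairs, and the exact 95% interval of the difference lay clear of 0 in 5 of them. Atm minus Chek2 was -1.13 (-1.53 to -0.73), and the ratio of their RPKM values went from 0.888 in WT to 0.406 in KO. Ercc2 and Ercc3 differed by -1.07 (-1.32 to -0.81), with a ratio of 1.26 in WT and 0.601 in KO. Fancd2 and Fanci, which are ubiquitinated together, differed by 0.66 (0.26 to 1.06), Xrcc1 and Lig3 by 0.38 (0.13 to 0.63), and Atr and Atrip by -0.45 (-0.88 to -0.03). The intervals held 0 for the Ku genes Xrcc5 and Xrcc6 (-0.07 to 0.60), for Brca1 and Bard1 (-0.49 to 0.09) and for Ddb1 and Ddb2 (-0.25 to 0.41). These intervals cover counting error only and were not adjusted over the pairs. Transcript length does not cancel in them. With length-corrected values, the difference was -0.52 for Atm and Chek2, -0.94 for Ercc2 and Ercc3, 0.75 for Fancd2 and Fanci, -0.0088 for Xrcc1 and Lig3 and 0.04 for Atr and Atrip, so that the last 2 pairs turned in sign.

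**Figure D2:**
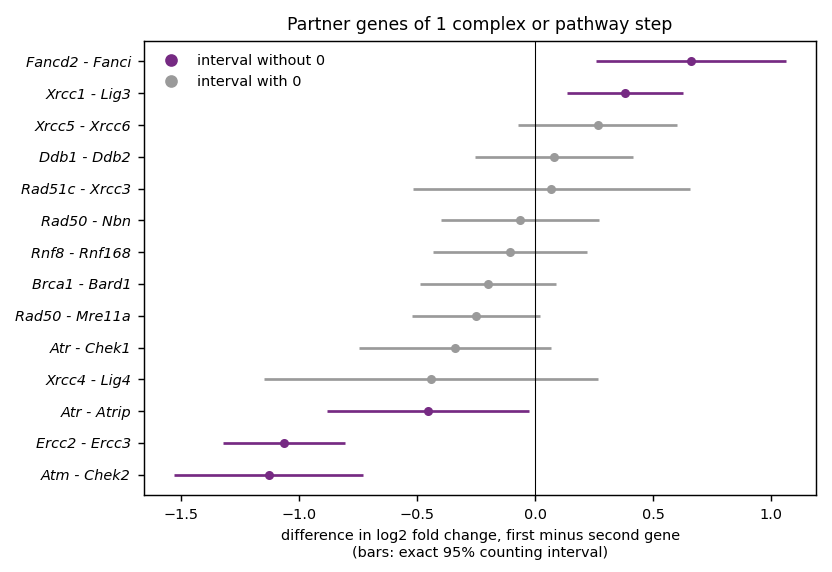
Difference in log2 fold change between the first and second gene of 14 partner pairs, with bars for the exact 95% counting interval, leaving out the pairs with Brca2 and Blm, which had under 10 reads. The 5 purple pairs run from -1.13 (Atm and Chek2) to 0.66 (Fancd2 and Fanci), and the 9 grey pairs have intervals that hold 0.

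Transcript length moved with these values. Across the 10796 tested genes with a length, log2 fold change and length of the longest coding transcript had a Spearman's rho of -0.39, and across the 41 members rho was -0.28 (Pearson's r -0.37). All points share the same pair of libraries, and genes are not independent replicates. The 9 lower members had a median length of 5957 bases, the 9 higher ones 3247 bases and the other 23 members 3797 bases. Of the 20 members longer than 3944 bases, 7 were lower (35%) and 4 higher (20%), with a median of 0.01. Of the 3631 tested genes of that length, 41.8% were lower and 9.80% higher, with a median of -0.28. Whether length plays a part in any single difference was not tested.

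**Figure D3:**
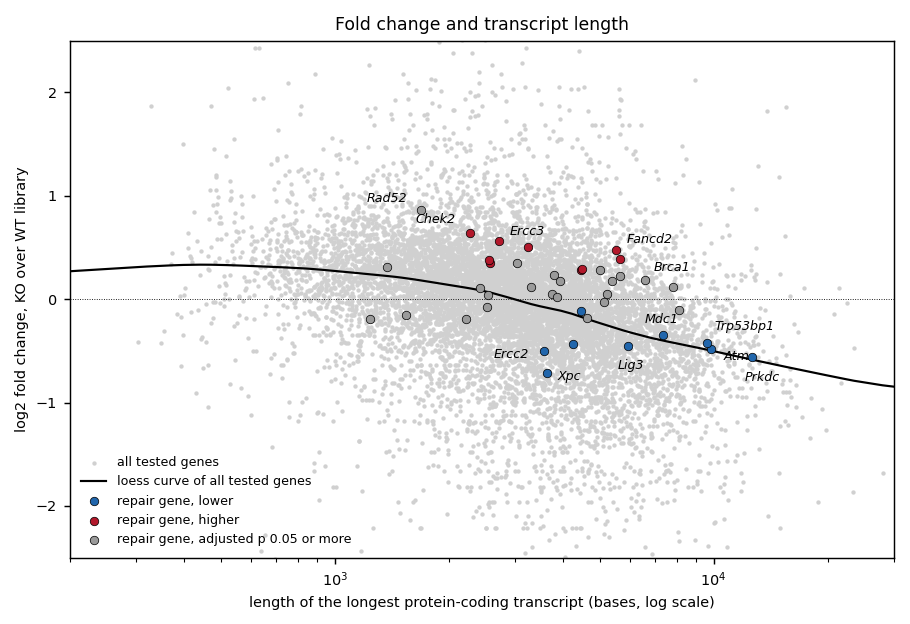
Log2 fold change (KO over WT library) against the length of the longest protein-coding transcript in bases (log scale). Tested genes with a length are in grey with their loess curve, and the repair genes are in colour. Outside the axes lie 168 genes that are not shown. Lower genes such as Prkdc, Atm and Trp53bp1 lie near the curve at the long end, while Fancd2 and Brca1 lie above it and Xpc and Ercc2 below it.

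With the loess curve of all genes on length taken off, 4 members were lower and 16 higher past the test, 9.76% and 39.0% of the 41, beside 16.9% and 20.2% of all tested genes. The lower ones were Xpc (-0.63), Xpa (-0.44), Ercc2 (-0.42) and Msh6 (-0.29). Of these 4, 3 belong to nucleotide excision repair, which holds 7 of the 41 tested members. Atm, Prkdc, Mdc1, Trp53bp1, Ddb1 and Lig3 no longer passed, at values between -0.13 and 0.07. Of the 9 higher members, 8 still passed, Atrip being the exception, and Fancd2 (0.76) and Bard1 (0.68) now had the highest values among them. Chek1, Rnf8, Topbp1, Rad50, Mre11a, Exo1, Brca1 and Parp1 had not passed before the correction and passed as higher with it. Their corrected values ran from 0.13 (Parp1) to 0.54 (Brca1 and Exo1). With a loess curve on GC content taken off in place of length, Chek1, Topbp1, Mre11a and Brca1 also passed as higher. With the length correction, the median of homologous recombination genes went from 0.27 to 0.45 and that of nucleotide excision repair genes from -0.20 to -0.31.

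**Figure D4:**
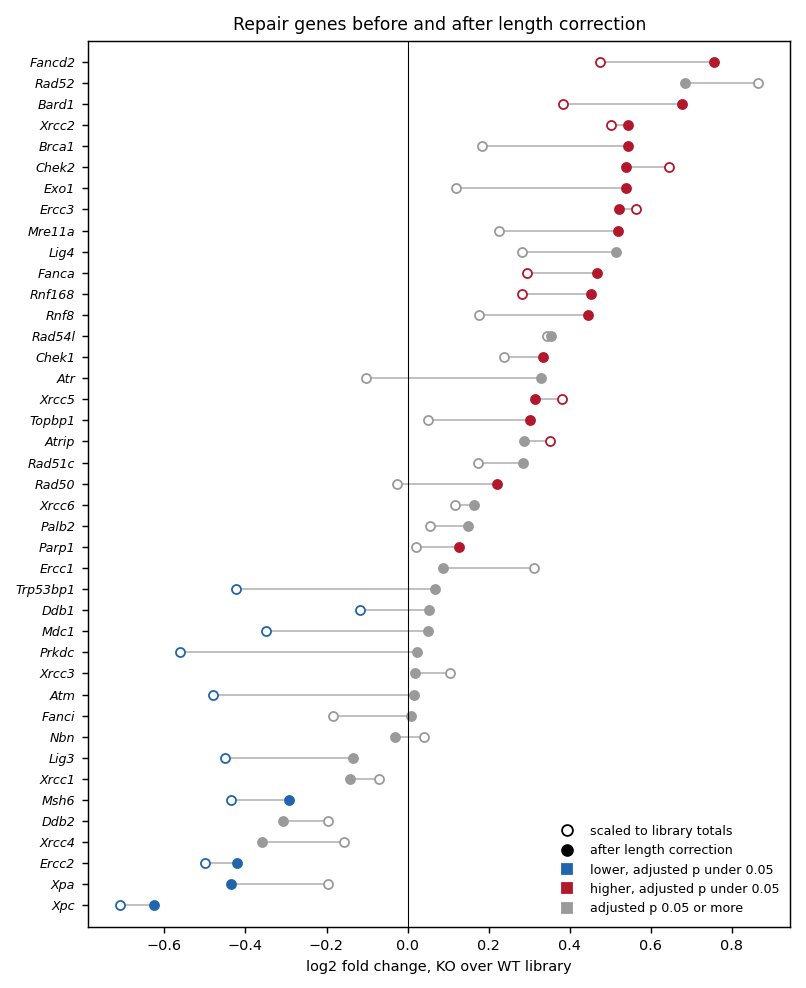
Log2 fold change (KO over WT library) of the 41 tested repair genes scaled to library totals (open circles) and after the length correction (filled circles), with colour for the test. Atm, Prkdc, Trp53bp1, Mdc1 and Ddb1 move from the lower side to between 0.02 and 0.07, and Xpc stays lowest at -0.63.

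Other genes of these pathways were taken from a list of 105 that holds no member. Of the 97 tested, 16 were lower (16.5%) and 24 higher (24.7%) past the test at any fold, beside 22.4% and 21.4% of all tested genes. Their median log2 fold change was 0.07. Only H2afx, the histone variant phosphorylated around breaks (858 and 1689 reads, 1.08), and Nsmce1, a subunit of the SMC5/6 complex (318 and 599 reads, 1.02), were higher by at least 2-fold past the test, and none was lower by that much past it. Poli, a translesion polymerase named after its values were seen, had 20 and 8 reads, a value of -1.17 with an interval from -2.61 to 0.03. Genes of the cell cycle stood higher in the KO library: of 28 listed, 22 were higher and 0 lower past the test, with a median of 0.56. The 15 S-phase genes had a median of 0.49 and the 13 G2/M genes 1.02. The G2/M median is the value of Bub1, which had 4 and 8 reads and an interval from -0.80 to 3.29. Tpx2, also on the G2/M list, had 3 and 9 reads and stood at 1.55. Plk1 (922 and 2356 reads, 1.46), Ccnb1 (1.32), Cdc20 (1.31), Ccnb2 (1.28) and Aurka (1.18), which act in mitosis, were each more than 2-fold higher, while the proliferation marker Mki67, with 4918 and 4513 reads, stood at -0.02. The part of the cell cycle in the members' values was not tested.

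A set of 5 motifs was searched, on both strands, in windows of 300 bases (250 before to 50 after the start) of the 34 members with a RefSeq promoter. The motifs were chosen with the data known: E2F (TTTCCCGC or TTTGGCGC), CCAAT, the CHR element TTTGAA, ETS (CCGGAAG) and the GC box GGGCGG. The E2F letters stood in 7 of 34 members (20.6%), beside 3.59% of 8196 tested genes and 1.80% of 27025 genes in all. The 7 were Bard1, Brca2, Chek2, Mdc1, Msh6, Rad51c and Xrcc6. They made up 2 of the 6 members higher past the read test (33.3%), 2 of the 7 lower (28.6%) and 3 of the other 21 (14.3%). Bard1, Chek2 and Msh6 still passed with the length correction, and Mdc1 did not. CCAAT stood in 52.9% of members and 42.4% of tested genes, CHR in 5.88% and 13.4%, ETS in 26.5% and 21.3%, and the GC box in 79.4% and 69.5%. In the printed sequences, the E2F letters begin 209 bases before the start of the curated transcript in Bard1 and 16 bases before it in Mdc1. Matches of different motifs were counted even where they overlapped. A match is a description of the letters and not a bound site.

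There were 4 members with too few reads for the test: Brca2 with 2 and 3 reads, Wrn with 3 and 4, Blm with 4 and 2, and Rbbp8, which encodes the resection factor CtIP, with 1 and 0. No fold is given for Rbbp8, as both libraries are under 3 reads. These genes and Rad54l (5 and 6 reads) each have more than 1 curated RefSeq transcript. Of the 26 members with 1 curated transcript, the lowest had 198 reads over both libraries and the median was 602.5, whereas of the 19 with more than 1, 5 had under 20 reads (26.3%) and the median was 307. Across all genes the medians were 339 and 100 reads, and 23.0% and 28.4% had under 20 reads, so that the 26.3% is near the general share. How reads shared by several transcripts were counted is not given in the sources used here, so these low totals are not read as low expression.

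**Figure D5:**
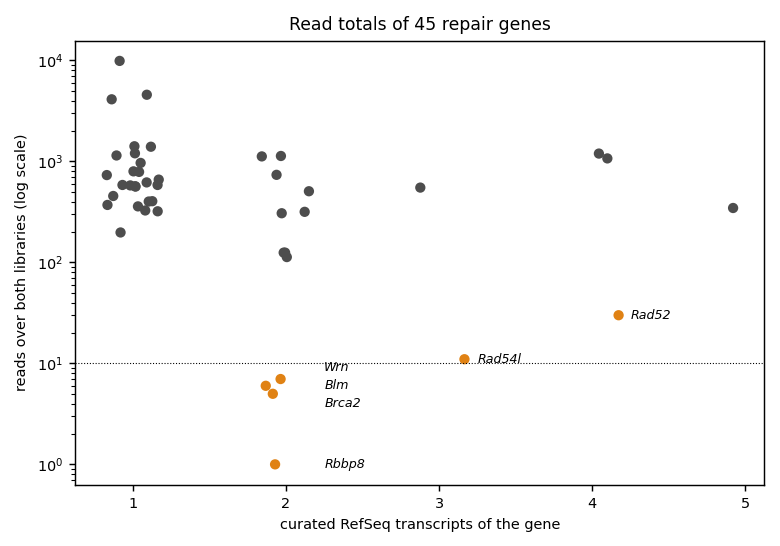
Reads over both libraries (log scale) of the 45 repair genes against their number of curated RefSeq transcripts, with points spread sideways for sight and a dotted line at 10 reads. All 6 genes under 50 reads, in orange, have 2 or more transcripts, and every gene with 1 transcript has at least 198 reads.

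In all, 17 members have an exon that overlaps another protein-coding gene, and whether counting used the strand is not given in the sources used here. Trp53bp1 shares up to 1873 bases with Tubgcp4 (42 and 42 reads) and Lig3 up to 1826 bases with Rffl (1 and 2 reads). Msh6 shares 34 bases with Fbxo11 (713 and 472 reads), and Atrip shares 459 bases on the same strand with Trex1 (11 and 27 reads). Of the 24 tested members without such an overlap, 4 were lower (16.7%) and 6 higher (25%), beside 22.4% and 21.4% of all tested genes.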

How the data were processed

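RNA was sequenced from 1 WT and 1 Trim28-/- Th17 culture. The authors mapped reads to mm10 with SOAP2 and deposited raw counts of reads per gene without normalization. The submitters' processing notes also name bcl2fastq, HTSeq, Bowtie and SICER 1.1, without roles, and the annotation and strand setting are not given in the sources used here. The ChIP-seq samples were not analysed here. A gene listed in 1 table was given 0 reads in the other.

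Counts were scaled to library totals, and log2 fold changes used a pseudocount of 0.5. Genes whose summed reads reached 10 were tested by an exact binomial test, two-sided, with the KO library's share of reads as the null, with Benjamini-Hochberg adjustment (SciPy 1.17.1, Python 3.11.15). Exact intervals (Clopper-Pearson, 95%; conditional odds ratio for pairs) cover counting error only. Transcript lengths came from GENCODE M21 for 99.0% of names, and positions and transcripts from RefSeq on GRCm38.p6. The length correction used loess (span 0.3, statsmodels 0.14.6). Alternatives used edgeR 4.0.16 and DESeq2 1.42.0 in R 4.3.3. The calculations were tested on simulated data. Every member is counted. Values are given for the 5 largest falls and rises among members with at least 50 reads, pairs whose interval lies clear of 0, the 5 highest RPKM values and listed genes past 2-fold. Other members' values, Mki67 and Clspn were added after they were seen. The members, lists, pairs and motifs were chosen with earlier results of these data known. The result of 1 marker list is not reported here.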

Additional observations from a re-analysis of the deposited data

How the results depend on the processing

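No paired analysis was possible because there was 1 library per genotype. With the length correction, 4 members were lower and 16 higher past the test, and 9 members changed sign. Of these, 5 had passed the test, and they went to values that did not pass, Atm to 0.0158, Prkdc to 0.0236, Mdc1 to 0.0496, Trp53bp1 to 0.0667 and Ddb1 to 0.0522. The other 4, Atr, Rad50, Nbn and Fanci, had not passed. The GC correction changed the sign of 4 members and TMM of 1, none of which had passed. At 1.5-fold in place of 2-fold, 1 member was called lower (Xpc) and 1 higher (Chek2). With edgeR's exact test and assumed variation of 0.1, 0.2 or 0.4, 0 members were lower and 0 higher at any fold, while of all genes 849 were lower and 486 higher at 0.1, 131 and 65 at 0.2, and 9 and 7 at 0.4. At an adjusted p under 0.001, 3 members were higher (7.32%) and 9 lower, beside 13.1% and 14.0% of all tested genes. Without members that overlap another gene, an alternative chosen after seeing the data, 4 were lower, which leaves fewer members to count. The cause of the other changes was not tested. Over all genes, 1.5-fold called 1248 lower and 764 higher, and at least 10 reads in each library called 389 and 184 at 2-fold. TMM, DESeq2 and upper-quartile scaling moved log2 values by 0.025, 0.011 and 0.0087. The members' median ran from 0.05 to 0.22 and kept its sign. Of 327 member values under the alternatives, 310 stayed within the counting interval of the value reported and 14 changed sign. Many of the 310 had little room to move. A changed read minimum leaves a log2 value as it was, and TMM, DESeq2 and upper-quartile scaling each shift every gene by 1 constant. With the length correction, 25 of 41 members stayed within the interval, and with the GC correction 40 of 41 did. Depth limits Rad52, Rad54l and the 4 members under 10 reads.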
